A study of Salmo salar with 96 samples.

Results

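*GHa* and *GHb*, a pair of growth hormone genes, *GHR1*, a growth hormone receptor gene, and *GHSRb*, a ghrelin receptor gene, were followed in Atlantic salmon (*Salmo salar*) from the embryo to the parr. They were taken by symbol as 4 of the 220 genes of an expression panel, without use of their values, and the panel holds 3 other genes of the same axis, the ghrelin gene *GHRL* and the ghrelin receptor genes *GHSRa* and *GHSRc*. By their probe accessions all 4 matched a RefSeq gene of salmon assembly Ssal_v3.1, on 4 different chromosomes, where *GHR1* is listed as *ghrb*. RNA was counted with NanoString nCounter, which hybridizes barcoded probes to RNA and counts the barcodes without amplification.

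Growth hormone is made by somatotroph cells of the pituitary and acts through its receptor in liver, muscle, adipose tissue and other organs, where it promotes growth and the use of stored fat. Ghrelin, a peptide hormone best known from the digestive tract, binds the growth hormone secretagogue receptor and stimulates the release of growth hormone. Salmonids descend from an ancestor with a duplicated genome, and the letters at the end of the symbols mark such similar gene copies.

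The early samples were 4 whole embryos at 186 degree days (°d, days multiplied by water temperature), 4 at 258 °d, 4 alevin at 436 °d and 6 fry, with the yolk sac taken off embryos and alevin. Fry 1 and 2 were 1119 °d and fry 3 and 4 were 1320 °d on the normal diet, while fry 5 and 6 were 1320 °d on a low-fat diet. All early fish and the 4 hatchery parr (fish 1 and 2 immature males, fish 3 and 4 immature females) belonged to the hatchery-kept Neva strain, and these parr were on the normal diet. The other 4 parr were wild males caught in the river Inarijoki, fish 5 and 6 immature and fish 7 and 8 mature, with no diet labelled. All parr were 3 years old. Up to 8 fish gave each of the 14 parr tissues, both fin samples came from 1 fish, and blood came from 4 hatchery fry of 2212 °d, 2 on each diet. Wild and hatchery fish therefore also differed in population and, in part, in sex and maturity. The sources used here do not say whether the pituitary was taken with the brain.

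The counts of a sample summed to 201761 to 480697 in the early samples and 47598 to 949899 in the tissues. Muscle of fish 4 and liver of fish 5, with scaling factors of 6.22 and 6.73 against an upper limit of 3.0, were left out, which left 94 of 96 samples. Among 7 lists of marker genes, the liver, adipose and gonad lists had their highest summed level in the labelled tissue and the T cell list in gill. The liver list was also high in testis, with a mean sum of 355132 normalized counts against 618339 in liver. The gonad list was highest in testis, but higher in fin (5997) than in ovary (5760). The brain and eye list and the muscle list were highest in ovary, with brain and muscle next, and the connective tissue list was highest in fin. Values below are normalized counts, the raw counts multiplied by a factor from reference genes, and 20 normalized counts served as the background threshold. Nothing in the labels says whether embryos of a stage shared parents, so p-values measure the spread between these samples only. In whole fish and tissue pieces, fewer cells of a type and less RNA per cell cannot be told apart.

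Of the 94 samples, *GHR1* reached 20 normalized counts in 90, *GHSRb* in 34, *GHa* in 26 and *GHb* in 24. Above the highest of the 8 negative control probes of the same sample lay *GHR1* in 90 samples, *GHa* in 21, *GHSRb* in 18 and *GHb* in 17. The receptor of growth hormone was thus measured in nearly every sample, and the other 3 genes in few groups. Group means of 20 or more were found in 18 of the 19 groups for *GHR1*, in 7 for *GHSRb* and in 6 each for *GHa* and *GHb*.

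During early development both growth hormone genes rose, *GHb* from the first to the second embryonic stage and both genes from the second embryonic stage to the alevin. *GHR1* also rose from the 258 °d embryo to the alevin, and so did *GHSRb*, but near background, where the negative controls were higher in the alevin too. From alevin to fry neither hormone gene passed the test, and the fry differed widely among themselves.

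*GHb* measured 2.48, 2.84, 5.28 and 5.51 normalized counts in the 186 °d embryos, below the mean of the negative controls of that stage (7.19). At 258 °d it measured 14.88, 31.3, 44.0 and 24.4, and in alevin 197, 193, 203 and 109. The 3 stages did not overlap, and alevin 4 was the lowest alevin by a wide gap. The first step amounted to a log2 fold change of 2.83 (SE 0.81, edgeR adjusted p = 0.0112), where 32.0% of the 178 genes tested passed, and with the negative controls subtracted it was 7.64. Because the 186 °d values were at background, this size is not fixed, and with cartridge, the set of samples run together, as a block the step was 2.40 with an adjusted p of 0.0521. The second step amounted to 2.61 (SE 0.59, adjusted p = 0.00148), a 6.09-fold rise, where 49.4% of the genes passed.

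*GHa* measured 2.07 to 9.01 normalized counts in the 186 °d embryos and 8.61 to 14.1 at 258 °d, so all 8 embryos were under the threshold. Its first step did not pass (log2 fold change 1.09, SE 0.76, adjusted p = 0.282). In the alevin it measured 94.75, 82.96, 68.6 and 51.9, all above every embryo. This step was a 6.45-fold rise (log2 2.69, SE 0.62, adjusted p = 0.00148).

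*GHR1* was high from the first stage on, at 319, 300, 284 and 274 normalized counts in the 186 °d embryos. At 258 °d the embryos held 186, 230, 243 and 247, all lower than at 186 °d, but this fall missed the threshold (-0.37 on the log2 scale, SE 0.35, adjusted p = 0.459). Alevin held 664, 578, 504 and 314, all above the 258 °d embryos, a 2.27-fold rise (log2 1.19, SE 0.36, adjusted p = 0.0102).

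*GHSRb* lay between 10.78 and 15.31 normalized counts in the 258 °d embryos, close to their negative control mean of 9.72. In the alevin it measured 33.1, 31.3, 22.6 and 21.9, above all 4 embryos. The negative control mean was also higher in the alevin, at 15.5, and 1 of 4 alevin lay above its highest negative control. The 2.03-fold rise passed (log2 1.02, SE 0.26, adjusted p = 0.00312), but with the negative controls subtracted it did not (1.63, adjusted p = 0.107). The 3 other genes of the axis had means under the threshold in every stage and were not tested there.

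**Figure D1:**
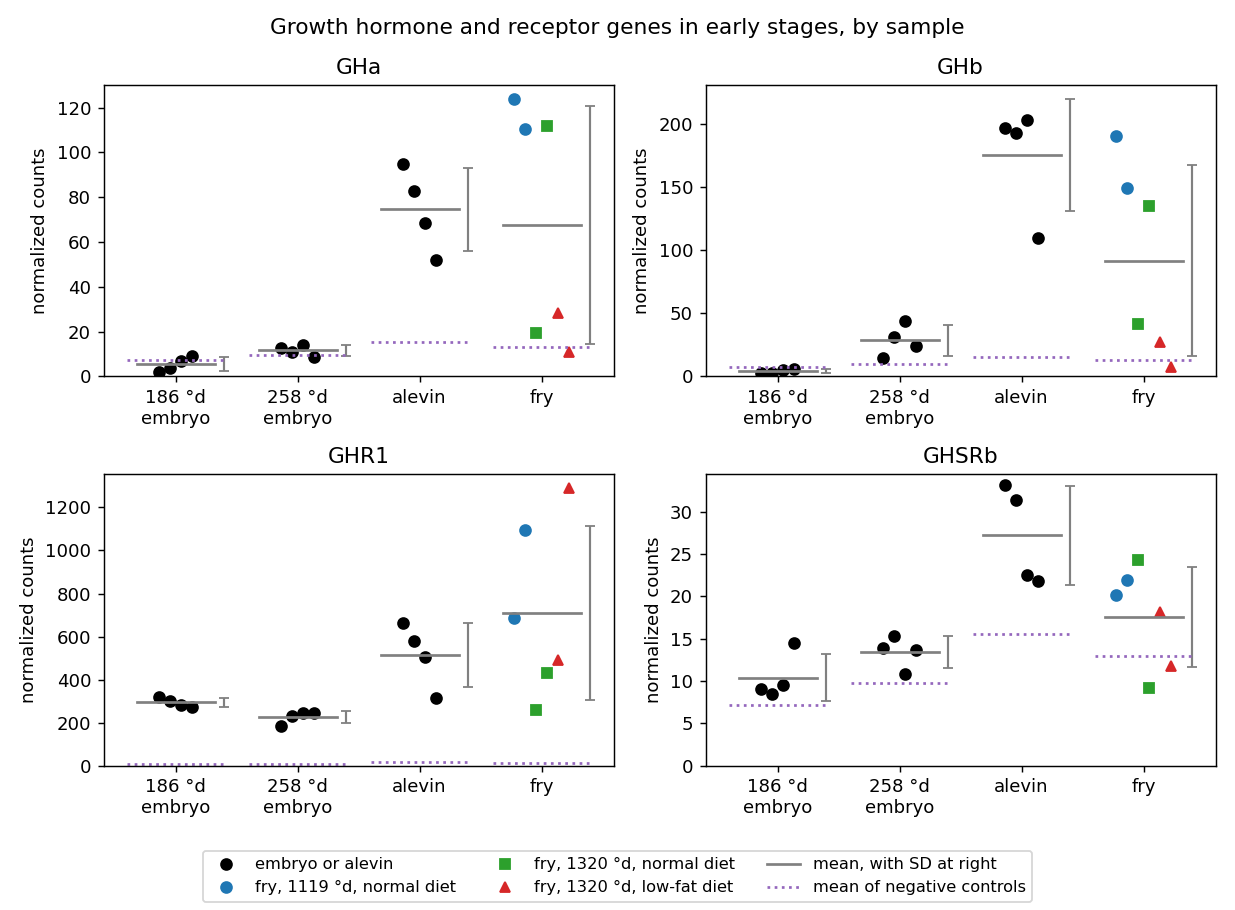
Normalized counts of the 4 genes in each whole embryo, alevin and fry. *GHb* lies between 2.48 and 5.51 in the 186 °d embryos and between 109 and 203 in the alevin, and the 6 fry spread from 7.51 to 190.2.

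Fry spread more than the earlier stages for both hormone genes and *GHR1*. *GHa* ran from 10.73 over a median of 69.5 to 124 normalized counts in the 6 fry, and *GHb* from 7.51 over 88.2 to 190.2. Both hormone genes were highest in fry 1, 2 and 4 and lowest in fry 6 on the low-fat diet. The means of the 1119 °d fry were 117 for *GHa* and 169.5 for *GHb*. The means of the 1320 °d fry were 65.6 and 88.2 on the normal diet and 19.6 and 17.3 on the low-fat diet, in the same order. On the normal diet *GHa* was 19.3 in fry 3 and 111.9 in fry 4, and *GHb* 41.6 and 134.8. Low-fat fry 5 held 28.5 of *GHa* and 27.2 of *GHb*, so the diets overlapped for *GHa* but not for *GHb*. With 2 fry each, no difference of diet or age was tested, and the 1320 °d fry were also reared at another station than the younger ones.

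*GHR1* went another way in the low-fat fry, which held 491 and 1290 normalized counts, against 258 and 431 in the 1320 °d fry on the normal diet. The 1119 °d fry held 687 and 1097. The 6 fry had a median of 589. Only the pair on the normal diet at 1320 °d lay below both low-fat fry.

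The step from alevin to fry, where 62.9% of the genes passed, was -0.13 for *GHa* (SE 0.47, adjusted p = 0.841) on the log2 scale and -0.91 for *GHb* (SE 0.48, adjusted p = 0.105). *GHR1* changed by 0.46 (SE 0.32, adjusted p = 0.214). *GHSRb*, at 9.17 to 24.3 normalized counts in fry, passed with -0.64 (SE 0.23, adjusted p = 0.0229), all values being near background. Among the samples of the cartridge that held all 4 stages, which left only the 1119 °d fry, the same step was 0.64 for *GHa* (adjusted p = 0.0166) and 0.79 for *GHR1* (adjusted p = 0.0133). In that set *GHb* changed by -0.06 and *GHSRb* by -0.39, neither of which passed.

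In the parr both growth hormone genes had their highest group mean in the brain, with a wide spread between fish. *GHa* measured 369, 17.3, 151 and 28.6 normalized counts in the brains of fish 1 to 4. *GHb* measured 783, 12.83, 242.5 and 27.7 in the same brains. Fish 1 and 3 were high for both genes, fish 4 was just above the threshold and fish 2 below it. Against the mean of the other parr tissues *GHa* was higher by 3.36 on the log2 scale (SE 0.30, adjusted p = 6.6e-16) and *GHb* by 4.65 (SE 0.35, adjusted p = 1.9e-19), where 63.6% of the 217 genes passed. With all tissues of fish 1 left out the differences were 2.29 and 3.23. The fit took 1 spread per gene over all tissues, so these SEs and p-values do not measure the spread between the 4 brains alone. With limma on log2 counts the differences were smaller, 2.43 (SE 0.41) for *GHa* and 3.19 (SE 0.50) for *GHb*, and both passed.

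Summed genes of pituitary hormones stood out in the brain of fish 1 only, while fish 3, high for both growth hormone genes, lay near fish 2. The panel's 4 gonadotropin subunit genes by symbol, *CGAa*, *CGAb*, *CGBa* and *CGBb*, summed to 142.5 normalized counts in the brain of fish 1, with 3 of 4 at 20 or more, and to 46.6, 53.1 and 35.9 in fish 2, 3 and 4, with 1, 1 and 0. In brain 2 of these 4 genes were higher and 1 lower than in the other tissues, near the 63.6% of all genes that passed there. *GLHA2a*, a glycoprotein hormone alpha gene looked at after its values were seen, reached 246 in the brain of fish 1. It was at 1.92, 13.07 and 10.61 in the brains of fish 2, 3 and 4. The part of pituitary tissue in the brain values was not tested.

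**Figure D2:**
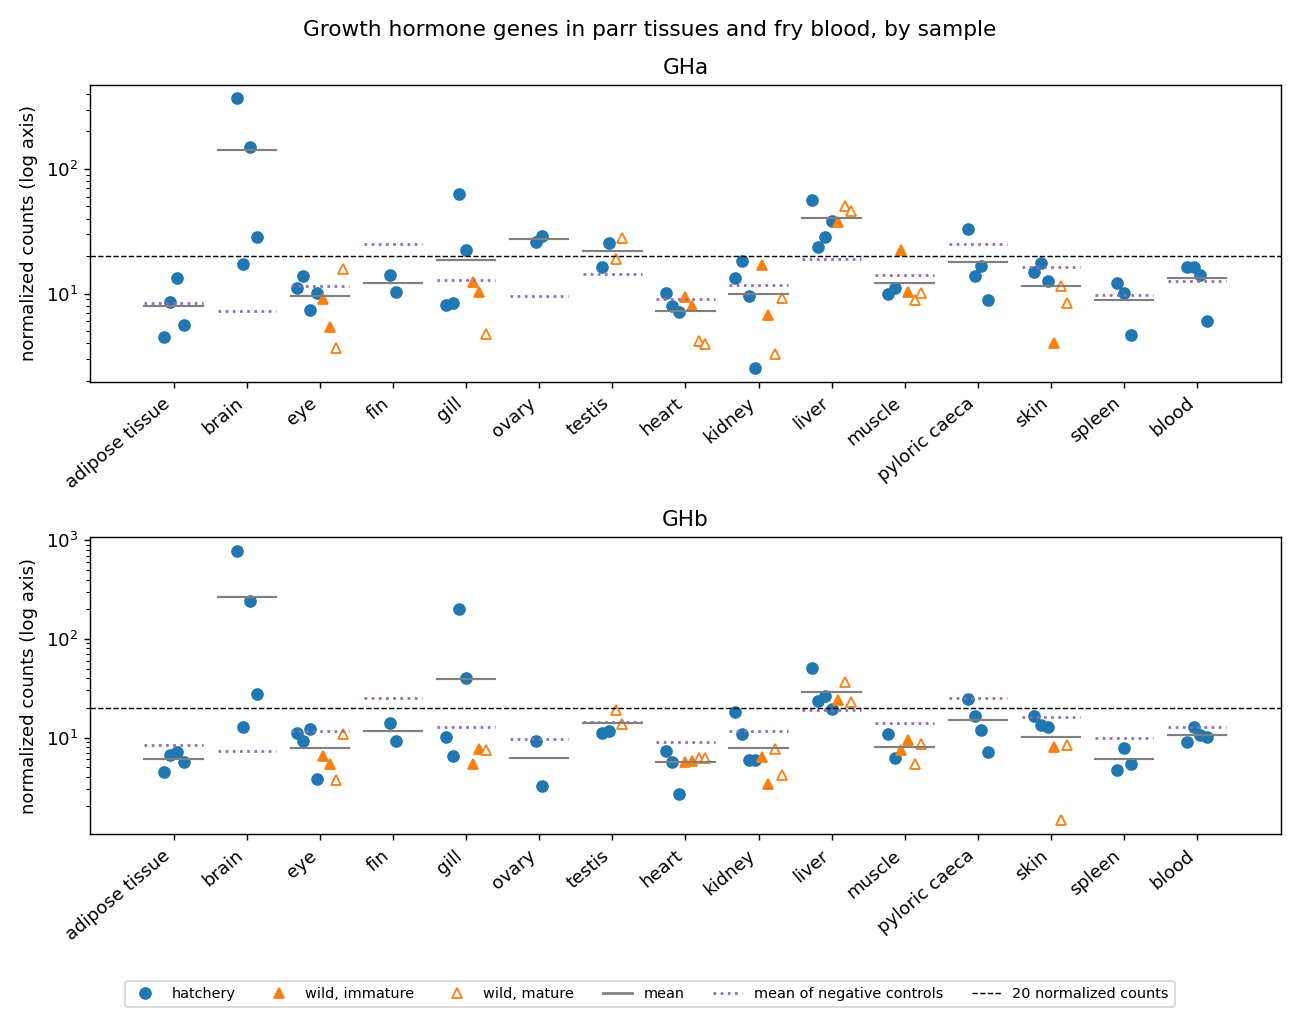
Normalized counts (log scale) of *GHa* and *GHb* in each sample of the tissues. The brains span 17.3 to 369 for *GHa* and 12.83 to 783 for *GHb*, and the gill of fish 3 stands at 200.6 for *GHb* while the median gill is at 7.73.

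In gill both genes reached the threshold in fish 3 and 4 only, and fish 3 was far above fish 4. *GHb* ran from 5.33 over a median of 7.73 to 200.6 normalized counts in 7 gills, and *GHa* from 4.69 over 10.31 to 63.3, with fish 3 highest for both and fish 4 next at 39.8 and 22.5. In that gill *GHSRb* was 56.5, the ghrelin gene *GHRL* 49.8, and the 4 gonadotropin subunit genes summed to 394, all 4 at 20 or more. The gill of fish 4 had a sum of 143.7 with 3 of 4 genes at 20 or more, and the other gills 37.0 to 65.7 with 1 each. Other genes were uneven among the gills too. The brain and eye list reached 1199.2 in its highest gill against a mean of 361.9, and the muscle list 269.2 against 69.8. The other marker lists spread less relative to their means, for example the adipose list with 2427.7 against 2049.7. Whether the gill of fish 3 was the highest for these lists was not tested, so a rise limited to hormone genes is not shown. *GHb* in gill was higher than in the other tissues by 1.68 (SE 0.36, adjusted p = 7.8e-05), where 53.5% of the genes passed. Without the gill of fish 3 the difference was 0.00 (adjusted p = 0.988).

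Liver and ovary were the parr tissues in which all samples held *GHa* at 20 normalized counts or more, with 25.7 and 29.1 in the 2 ovaries. The 7 livers ran from 23.6 over a median of 38.5 to 56.3, and 5 of 7 lay above the highest negative control. *GHb* ran from 19.2 over 23.75 to 50.3, of which 2 lay above the highest negative control, against a mean negative control of 19.0. Both genes were higher in liver than in the other tissues, *GHa* by 1.40 (SE 0.30, adjusted p = 4.6e-05) and *GHb* by 1.21 (SE 0.39, adjusted p = 0.00584), where 64.1% of the genes passed. These livers were thus close to background, and with hatchery fish only the *GHb* difference no longer passed (1.13, adjusted p = 0.0789). Differences of *GHa*, *GHb* and *GHSRb* between tissues in which they stayed under the threshold are not read here, since both sides rest on background.

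The 2 hormone genes were set against each other within samples, as log2 of (*GHb* + 1) over (*GHa* + 1), in the 4 groups with both means at 20 or more. The ratio also holds any difference between the probes, and whether each probe also binds RNA of the other copy was not tested. In alevin the log2 ratio was 1.22 ± 0.24 (SD, n = 4), a 2.32-fold excess of *GHb*, in 4 of 4 alevin (exact sign-flip test p = 0.125, the smallest that 4 samples allow). In liver it was -0.47 ± 0.40 (SD, n = 7), with *GHa* higher in 6 of 7 and both equal in fish 2 (exact p = 0.0312, adjusted over 4 tests 0.125). In fry it was 0.31 ± 0.53 (SD, n = 6), with *GHb* higher in 4 of 6, and in brain 0.33 ± 0.68 (SD, n = 4), with *GHb* higher in 2 of 4. The mean ratio was thus on opposite sides of 0 in alevin and liver.

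Between groups the ratio differed by 1.68 between alevin and liver (exact two-sided permutation test p = 0.00606, adjusted over 6 pairs 0.0364). Fry and liver differed by 0.77 (exact permutation p = 0.0163, adjusted 0.049). Both differences rest on liver values close to background, and the tests between groups were not repeated with other settings or with samples left out. Alevin and fry differed by 0.91, which did not pass after adjustment (exact permutation p = 0.0286, adjusted 0.0571), and no pair with brain passed.

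*GHR1* had its highest group means in adipose tissue and muscle and was under the threshold in blood. In adipose tissue it measured 3529, 2517, 1295 and 1530 normalized counts in fish 1 to 4. In muscle it ran from 912 over a median of 1736 to 2945 in 6 fish. The lowest adipose sample and the muscle median lay above every brain, eye, gill, heart and skin. The highest spleen (1604) lay above that adipose sample, and the highest kidney (2060) above both. Adipose tissue exceeded the mean of the other tissues 4.33-fold (log2 2.11, SE 0.25, adjusted p = 9.9e-11), where 52.1% of the genes passed, and muscle 3.63-fold (log2 1.86, SE 0.22, adjusted p = 2.8e-11), where 67.3% passed. With hatchery fish only, muscle exceeded the others by 1.14 and spleen by 1.04.

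Spleen, kidney, testis, liver and skin followed in the order of means at 1051, 770, 759, 737 and 712 normalized counts. Spleen held 1604, 598 and 951 in fish 1, 3 and 4, and was higher than the other tissues by 0.95 (SE 0.32, adjusted p = 0.0148), where 40.6% of the genes passed. This call was lost without fish 1 (0.57, adjusted p = 0.297) or without fish 4 (1.00, adjusted p = 0.0567). In kidney the difference was 0.47 (SE 0.22, adjusted p = 0.0624), where 55.3% passed, and in skin 0.35 (SE 0.25, adjusted p = 0.248), where 43.3% passed. Heart, with a mean of 409, did not pass either (-0.51, SE 0.25, adjusted p = 0.0666), where 65.9% passed.

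Eye, gill, pyloric caeca (blind tubes of the fish gut), ovary and blood were the low side of the *GHR1* order, with means of 243.5, 297.5, 219, 179.5 and 9.76 normalized counts. Eye differed from the mean of the other tissues by -1.32 on the log2 scale (SE 0.26, adjusted p = 1.2e-05), where 46.1% of the genes passed. Gill differed by -1.01 (SE 0.26, adjusted p = 0.00102). Pyloric caeca differed by -1.49 (SE 0.36, adjusted p = 0.000587), where 32.7% passed. In the 2 ovaries, at 183 and 176, the difference was -1.79 (SE 0.52, adjusted p = 0.0019), where 60.8% passed, and -2.79 with TMM scaling.

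Blood of the 4 fry held 4.49, 18.1, 12.42 and 4.04 normalized counts of *GHR1*, all under the threshold, and differed from the parr tissues by -5.91 (SE 0.52, adjusted p = 1.6e-15), where 63.6% of the genes passed. The blood values were at background, so this size is not fixed, and it was -4.93 with TMM scaling and -10.11 with negative controls subtracted. Every other group reached the threshold in its mean. Of the 18 neighbours in the order of means, 17 overlapped in their samples, and ovary and blood alone did not. For *GHa*, *GHb* and *GHSRb* all 18 neighbours overlapped.

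**Figure D3:**
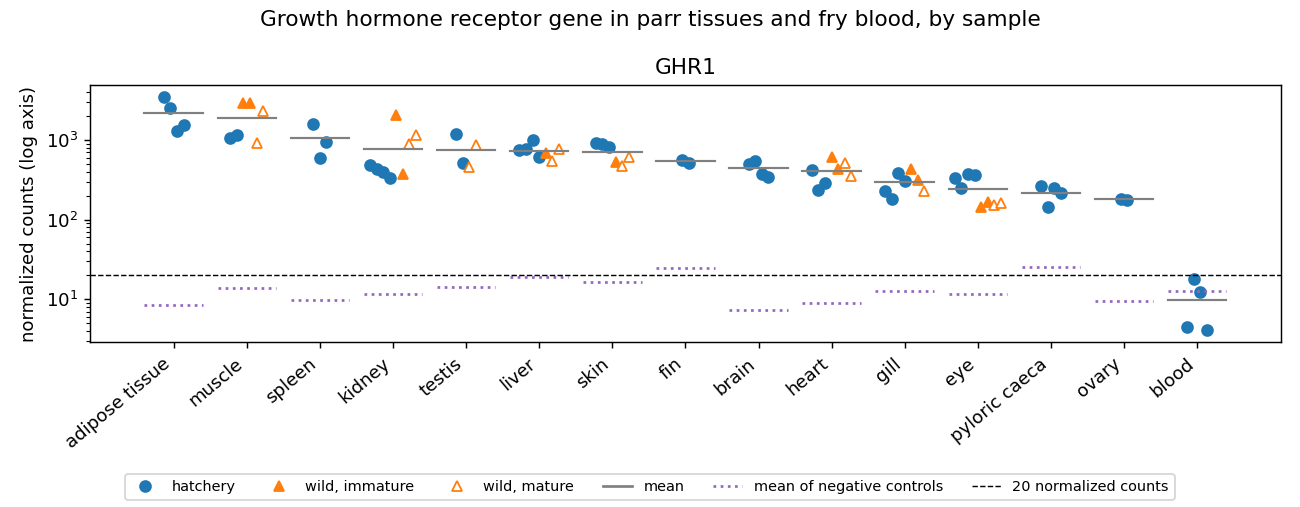
Normalized counts (log scale) of *GHR1* in each sample, with groups in the order of their means. Adipose tissue lies between 1295 and 3529, muscle between 912 and 2945 and blood between 4.04 and 18.1.

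*GHSRb* had its highest group mean in testis and its most even detection in liver. Testes of the immature fish 1 and 2 held 28.7 and 38.2 normalized counts, and those of the mature fish 7 and 8 held 490.5 and 52.6. The immature testes came from hatchery fish and the mature ones from wild fish, so maturity and habitat cannot be told apart here. Fish 7 was far above the other testes, and the value of fish 8 came from 19 raw counts with a scaling factor of 2.77. Testis was higher than the other tissues by 3.05 (SE 0.29, adjusted p = 9.3e-15), where 43.8% of the genes passed, but in hatchery fish only by 0.75 (adjusted p = 0.115). Without fish 7 the difference was 1.06 and still passed (adjusted p = 0.00656). *CGBa*, a gonadotropin beta gene by symbol, stood at 2099 in the testis of fish 7 and 163 in that of fish 8.

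All 7 livers held *GHSRb* above their highest negative control, from 46.0 over a median of 54.6 to 113 normalized counts. Of these 7, the mature fish 7 and 8 were highest, at 113 and 97.4. The wild immature fish 6 was at 54.5, within the range of the hatchery fish. The other wild immature liver, of fish 5, was left out for its scaling factor of 6.73. With it kept the group mean rose from 68.89 to 82.15, so its value lay above those of fish 7 and 8. Liver was 3.49-fold above the other tissues (log2 1.80, SE 0.27, adjusted p = 1.7e-08), where 64.1% of the genes passed. All 3 other genes of the axis were also higher in liver, *GHRL* by 1.91, *GHSRa* by 1.55 and *GHSRc* by 4.14, beside a median of -0.28 over all genes tested there.

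Pyloric caeca held *GHSRb* at 65.4, 23.5, 33.4 and 21.3 normalized counts, of which none exceeded the highest negative control of its sample, and the difference did not pass (0.77, SE 0.38, adjusted p = 0.122). Here *GHSRa* was higher (2.21), 1 of 3 other axis genes, where 32.7% of all genes passed. Brain held 42.3, 34.6, 27.8 and 18.8 in fish 1 to 4 and did not pass (0.56, SE 0.36, adjusted p = 0.170). In testis *GHSRc* was higher by 2.62 and the other 2 axis genes did not pass. *GHSRc*, the third ghrelin receptor copy by letter, thus passed in both tissues with the highest *GHSRb* means. In these tissues 43.8% (testis) and 64.1% (liver) of all genes passed.

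**Figure D4:**
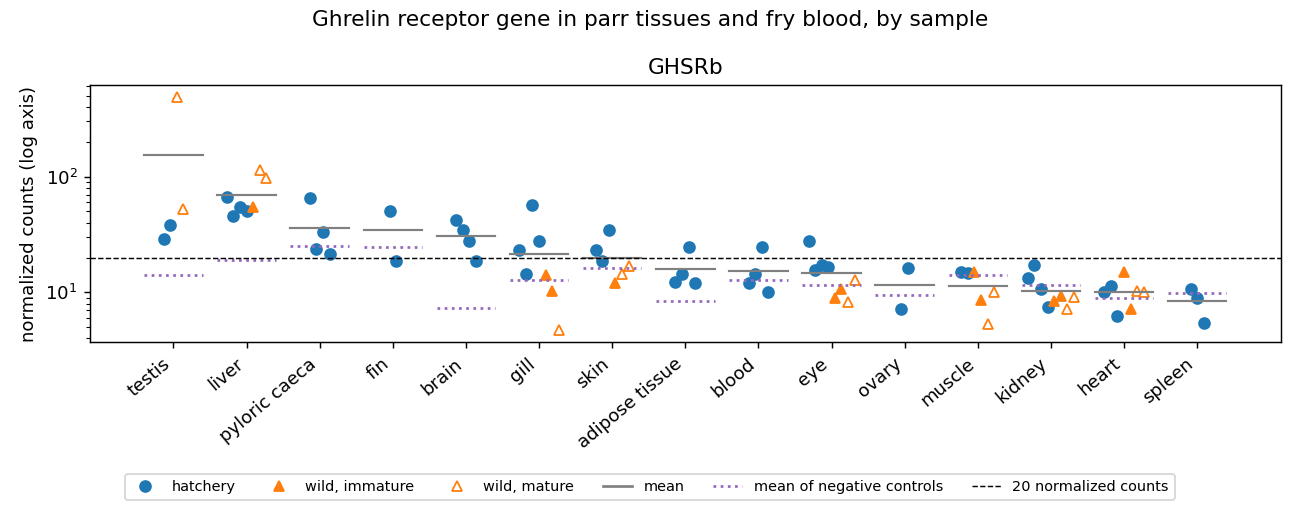
Normalized counts (log scale) of *GHSRb* in each sample, with groups in the order of their means. The testis of fish 7 is at 490.5, while the other testes lie between 28.7 and 52.6 and the 7 livers between 46.0 and 113.

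Testis and ovary were also compared directly, a contrast in which 76.5% of the 187 genes passed. The testes held 1184, 516, 458 and 879 normalized counts of *GHR1* in fish 1, 2, 7 and 8, all above the ovaries. The difference was 4.23-fold (log2 2.08, SE 0.50, adjusted p = 0.00756), and without the ovary of fish 3 or of fish 4 it was 2.11 and 2.05 and no longer passed (adjusted p = 0.0541 and 0.0607). *GHSRb* was at 7.20 and 16.2 in the ovaries, below all 4 testes, with a difference of 3.70 (SE 1.51, adjusted p = 0.0571). *GHa* differed by -0.33 (SE 0.32, adjusted p = 0.375).

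Wild and hatchery parr were compared in the 7 tissues with at least 2 fish of each. No cartridge held both, so that habitat, population and cartridge cannot be told apart, and all wild fish were males. *GHR1* was lower in wild fish in eye and skin and higher in kidney. In the other 4 tissues it did not pass.

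In eye the hatchery fish held 334, 249, 373 and 363 normalized counts of *GHR1* and the wild fish 144, 169, 151 and 164. The groups did not overlap, and wild eyes were 2.10-fold lower (log2 -1.07, SE 0.18, adjusted p = 0.000505), where 56.1% of the genes passed and the median over all genes was -0.19. In kidney the hatchery fish held 494, 435, 403 and 334 and the wild fish 2060, 371, 893 and 1174. All wild kidneys but that of fish 6 lay above the hatchery kidneys. The difference was 2.69-fold (log2 1.43, SE 0.43, adjusted p = 0.0159), where 66.0% passed and the median over all genes was -0.70. Among males only it was 1.27 with an adjusted p of 0.124.

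In skin 3 hatchery fish held 935, 884 and 831 normalized counts and 3 wild fish 536, 473 and 610, without overlap. The difference of -0.71 (SE 0.16, adjusted p = 0.00906), where 54.2% of the genes passed, lay beside a median of -0.60 over all genes. Scaled by TMM, which assumes that most genes do not differ, it was -0.13 (adjusted p = 0.458). In muscle *GHR1* was at 1067 and 1173 in hatchery fish and 2945, 2912, 912 and 2299 in wild fish, which did not pass (1.02, SE 0.59, adjusted p = 0.225), where 31.6% passed. Heart (0.62, SE 0.27, adjusted p = 0.110, 34.3% passing), gill (0.24, SE 0.29, adjusted p = 0.501, 24.9% passing) and liver (-0.22, SE 0.27, adjusted p = 0.571, 23.4% passing) did not pass.

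The habitat difference of *GHR1* itself differed between tissues. In 1 fit over the 7 tissues, that of eye stood apart from the mean of the other 6 by -1.46 (SE 0.35, adjusted p = 0.00113) and that of kidney by 1.45 (SE 0.35, adjusted p = 0.00146). This fit took tissues of the same fish as separate samples, so its SEs and p-values leave the pairing by fish out. *GHSRb* in liver was at 46.0 to 66.4 in hatchery and 54.5 to 113 in wild fish, which overlapped and did not pass within liver (0.69, SE 0.28, adjusted p = 0.0991). Its habitat difference in liver stood apart from that of the other tissues by 1.44 (SE 0.39, adjusted p = 0.0176). In those tissues the *GHSRb* means ran from 10.06 normalized counts in heart to 21.6 in gill, so this contrast rests largely on background. The share of all genes that passed in these comparisons between tissues was not counted.

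**Figure D5:**
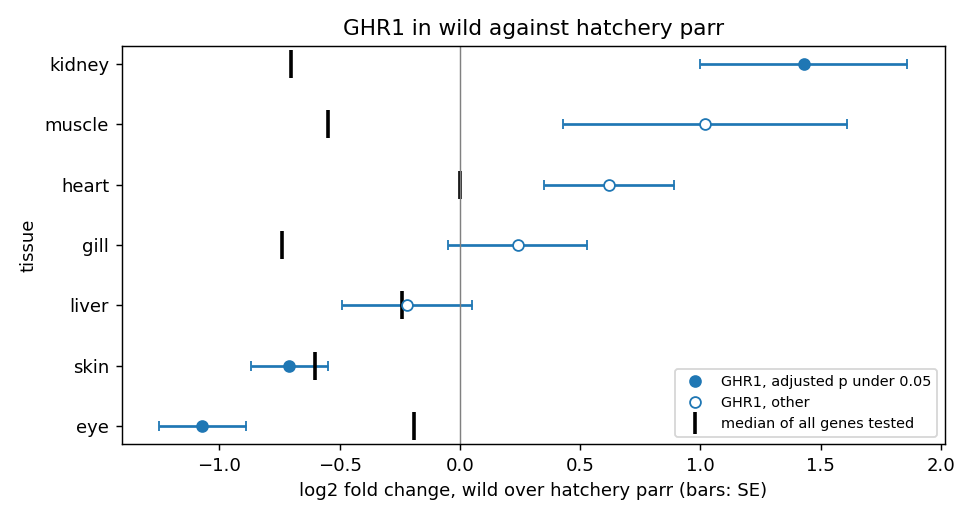
*GHR1* in wild against hatchery parr, for the 7 tissues with at least 2 fish of each. In normalized counts, eyes of wild fish lie between 144 and 169 and those of hatchery fish between 249 and 373, while 3 of the 4 wild kidneys lie above the highest hatchery kidney at 494.

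Sexes were not tested, with at most 2 hatchery males and 2 females in a tissue. *GHR1* was at 3529 and 2517 normalized counts in adipose tissue of the males against 1295 and 1530 in the females, and in gill at 227 and 181 in the males against 385 and 310 in the females. Over the 7 tissues with 2 fish of each sex, the mean of the females was higher in 4 and that of the males in 3, and the sexes did not overlap in 5. Of these, males were higher in adipose tissue, brain and kidney and females in eye and gill. With 2 fish of each sex such gaps are frequent by chance, and the same fish gave all 7 tissues. The share of all genes without overlap was not counted. Among wild males, muscle held 2945 and 2912 in the immature fish and 912 and 2299 in the mature fish. It was the only 1 of 4 tissues without overlap by maturity, and in eye, heart and kidney the fish overlapped.

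The profile of each gene over the 19 groups was set against the 217 genes measured in at least 1 group, by Pearson's r of log2 group means, which share their libraries and scaling. *GHa* and *GHb* were each other's closest gene (r = 0.878). Next for *GHa* came *RLN3Ac*, a relaxin gene by symbol (r = 0.786), *GNRH*, a gonadotropin-releasing hormone gene (r = 0.753), *RLN3Ab* (r = 0.736) and the receptor gene *GNRHR1b* (r = 0.681). *GHb* was followed by *DLK1a* (r = 0.721), *GNRHR1b* (r = 0.691), *RLN3Ab* (r = 0.686) and *GNRH* (r = 0.641). The 2 hormone genes thus shared 3 of their 5 closest genes beside each other, which their own r of 0.878 makes likely. The means of *GHa* and *GHb* reached the background threshold in only 6 of the 19 groups each, so these r rest largely on values near background. Without the brain all of them were lower, with 0.845 between *GHa* and *GHb*. *GHa* with *GNRHR1b* then had 0.553 and *GHb* with *GNRH* 0.546.

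Among the 5 genes closest to *GHR1* were *FOXO1c*, a forkhead transcription factor gene (r = 0.785), *LATS2b*, a Hippo pathway kinase gene (r = 0.728), *ADMb* (r = 0.679) and *EGR1a* (r = 0.65). For *GHSRb* these were *GNRHR4b* (r = 0.82), *OTX2d* (r = 0.806), *RLN3Ac* (r = 0.806), *RLN3Aa* (r = 0.803) and *GHSRc* (r = 0.796). The mean of *GHSRb* reached the background threshold in 7 of 19 groups, so its r also rest largely on values near background. Between *GHa* and *GHR1* r was 0.016.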

How the data were processed

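Raw counts and a table of normalized signal were deposited by the authors, who scaled each sample in nSolver by positive controls and 6 reference genes. The 7426 deposited normalized values compared, all from higher raw counts, equalled the raw counts times 1 factor per sample within 0.0094%. Values from low counts were not compared, and 98 of all deposited values were listed as 1. Libraries whose factor exceeded 3.0 were excluded, as in the study's methods. Differences were tested on raw counts with edgeR 4.0.16 (quasi-likelihood F test, factor as offset, Benjamini-Hochberg over all genes with a group mean of 20 or more, threshold 0.05) in R 4.3.3, after checks on simulated data. limma 3.58.1 (log2 of normalized counts plus 1), DESeq2 1.42.0, TMM, 4 reference genes, subtracted negative controls, replicate and cartridge blocks, subsets and left-out samples were alternatives. Tissues of the same fish are paired by fish. The check gave a mean correlation of deviations of 0.11 over 293 pairs. The named genes are the 4 genes in every comparison, their 5 closest profiles and fixed lists, all chosen with earlier results of these data known. Of the GnRH list 6 of 10 genes were higher in brain and 1 lower, and of the leptin list 2 of 3 were lower in adipose tissue, where 63.6% and 52.1% of all genes passed. 169 of 220 genes matched RefSeq. No sequence is printed. The remaining gene close to *GHR1* is not reported here.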

Additional observations from a re-analysis of the deposited data

Results flagged for a closer look

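Among 41 groups of 4 to 10 samples whose highest sample reached 20 normalized counts, 6 samples stood apart from the rest of their group. Because the highest sample also decided which groups entered, this number is not set against chance. The gill of fish 3 was at 63.3 normalized counts of *GHa*, with the next gill at 22.5, and at 200.6 of *GHb*, with the next at 39.8. *GHa* in muscle of fish 5 was 22.3, next to 11.07, and *GHSRb* in the eye of fish 1 was 27.7, next to 17.2, both near background. *GHb* in alevin 4 was low at 109, next to 193. *GHSRb* in the testis of fish 7 was 490.5, next to 52.6.

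Of 28 differences between wild and hatchery fish, 5 stood apart from the average difference in the remaining 6 tissues, tested jointly over all 7. The joint fit left the pairing of tissues by fish out. The share of all genes that did so was not counted, so whether 5 is many is not known. *GHR1* did so in eye (-1.46, SE 0.35, adjusted p = 0.00113) and kidney (1.45, SE 0.35, adjusted p = 0.00146), and *GHSRb* in liver (1.44, SE 0.39, adjusted p = 0.0176). In gill *GHb* (-2.70, SE 0.75, adjusted p = 0.0189) and *GHSRb* (-1.32, SE 0.44, adjusted p = 0.0316) did so, but without the gill of fish 3 these were -0.80 (adjusted p = 0.47) and -0.82 (adjusted p = 0.302). For *GHb* and *GHSRb* most of the remaining tissues had means under the threshold, so their contrasts in gill and liver rest largely on background.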

How the results depend on the processing

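Of 593 alternative values of the main results, 545 kept their direction and their side of the threshold. From the 186 °d to the 258 °d embryo, *GHa* passed with only the 1119 °d fry in the fit (1.09), and *GHb* did not with a cartridge block (2.40). *GHSRb* from the 258 °d embryo to the alevin did not pass with negative controls subtracted (1.63). The *GHa* step from alevin to fry turned positive with TMM (0.11), 4 reference genes (0.02), the replicate block (0.21), the cartridge block (0.64), the 1119 °d fry only (0.64), the normal diet only (0.29) and the cartridge with all stages (0.64), and ran from -0.39 to 0.09 when single samples were left out, above 0 without alevin 1 or fry 3, 5 or 6. *GHb* passed there with limma (-1.55) and ran from -1.26, which passed without fry 1, to -0.67. *GHR1* passed with the 1119 °d fry only (0.78) and the cartridge with all stages (0.79), and ran from 0.20 to 0.63, which passed without fry 3. *GHSRb* lost its call there with TMM (-0.38), 4 reference genes (-0.49), negative controls subtracted (-1.22), the replicate block (-0.54), the cartridge block (-0.39), the 1119 °d fry only (-0.39), the normal diet only (-0.54) and the cartridge with all stages (-0.39), and ran from -0.75 to -0.50, lost without alevin 1 or 2. The numbers of the early samples pair nothing (mean correlation -0.02 over 24 pairs), and the block by fish changed no call of these genes in the tissue contrasts given.

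*GHSRb* in testis did not pass in hatchery fish (0.75), nor *GHR1* in kidney among males only (1.27) and in skin with TMM (-0.13) or cartridge as a random block (-0.69). The *GHR1* difference in liver was 0.02 with the left-out liver kept, and that of *GHSRb* in skin 0.01 with negative controls subtracted. Between gonads *GHR1* ran from 1.78 to 2.26, and *GHSRb* passed with TMM (4.30), negative controls subtracted (5.62) and immature fish only (1.52), running from 1.73 to 4.38. The liver ratio of the hormone genes ran from -0.54 to -0.38 when single fish were left out and was -1.05 with negative controls subtracted. TMM moved the median of all genes by 0.57 in skin and 0.53 in kidney between wild and hatchery fish, by -0.97 in ovary and by 1.04 in blood. Of 472 counts of passing genes, 443 stayed within 1.5 times the main count. The other 29 were mostly wild against hatchery gill (11 to 90 against 50), heart (13 to 30 against 47), muscle (at most 23 against 49), skin (52 with TMM or the random cartridge block against 83) and liver (23 without fish 7 against 37). With negative controls subtracted 66, 68, 67 and 56 genes passed in adipose tissue, heart, kidney and spleen, 73 in adipose tissue without fish 1, and 76 in gill without fish 3. Counts of 20 or fewer, as in most *GHa*, *GHb* and *GHSRb* samples, limit these genes, and the causes of lost calls were not tested.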
